A study of Aspergillus nidulans with 6 samples.

Results

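Among 1375 genes listed for the comparison of celAΔ with its parent in Aspergillus nidulans (A. nidulans), 33 were annotated as proteases, lipases, esterases or other hydrolases of proteins, lipids, amides, nucleic acids and phosphate esters. They were chosen by words in the annotation (such as protease, peptidase, lipase, esterase, nuclease, amidase, nitrilase, urease and acid phosphatase), after exclusion of cell wall polysaccharide, CoA, toxin, sterigmatocystin and transcription terms. Of 34 matches, 1 was dropped, namely amdR, which encodes a transcription factor. Many of the words matched inside longer ones, and in gatA (transamidase) and a muramidase the longer word names an enzyme of another kind. A phytoceramidase gene, also caught through amidase, is kept with the lipid hydrolases. The rule read the annotation only, but the 1375 genes it was applied to had been selected by the authors for a difference between the strains.

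RNA-Seq was performed on mycelium grown for 3 days at 37 °C in liquid minimal medium with 0.4% w/v glucose as carbon source and 10 mM ammonium tartrate as nitrogen source. There were 3 libraries of the control, SAA.111, which carries veA1, biA1 and wA3, a deletion of argB marked by trpC (ΔargB::trpC), and the alleles riboB2 and pyroA4, and 3 of celAΔ, derived from SAA.111 by replacing the entire locus ANIA_08444 (celA, a putative cellulose synthase) with the selectable marker argB. The 2 strains thus differ in argB as well as in celA, and all celAΔ cultures descend from a single stable transformant. Differences due to celA, to argB or to that transformant cannot be told apart.

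Filamentous fungi live by secreting hydrolases and absorbing the products. Proteases are divided into endopeptidases, which cut within a protein chain, and exopeptidases, which remove residues from its ends, and some of both kinds work in the vacuole, where cell contents are recycled. Lipases and phospholipases free fatty acids from lipids, amidases and nitrilases free ammonia from organic nitrogen, and acid phosphatases free phosphate. In A. nidulans, many of these genes are known to be held down while glucose and ammonium are plentiful.

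Levels are given as RPKM, the reads of a gene per kilobase of its length, scaled to the mapped reads of the library. Changes are given as log2 FC, the log2 of the level in celAΔ over that in the control, with a standard error (SE). The SE was computed back from the log2 FC and the edgeR test statistic. It therefore restates the p-value and is not a separate measure of the spread between libraries. Mapped totals were 3300251 to 3706233 reads in the control and 4176645 to 5205011 in celAΔ. The label check gave 111 to 198 reads of celA in the control libraries against 33 to 38 in celAΔ, and 2 to 4 reads of argB against 8150 to 15329. Reads of celA thus remained in all 3 celAΔ libraries, although the entire locus is described as replaced. The labels call the strain a deletion in one field and a downregulation of celA in others, and the source of these reads was not tested. The list holds only genes that the authors had selected for a difference between the strains, and 0 of the 1375 differed by less than 2-fold in mean RPKM. For this reason the adjusted p-values below, which set each change against the spread between libraries, are not independent evidence of a change. By edgeR's quasi-likelihood test with Benjamini-Hochberg adjustment, 93.6% of all listed genes passed the threshold (adjusted p under 0.05 and log2 FC beyond 1 in absolute value), 41.1% as higher and 52.5% as lower in celAΔ.

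Control replicate 3 stood apart from the other control libraries. The summed RPKM of 4 conidiation markers, used as a check for spore-forming cells in the mycelium, was 41.0 in control 1, 40.7 in control 2 and 1247 in control 3, against 1623 to 3389 in celAΔ. Among them, ANIA_10628 was at 0 reads in control 2, ANIA_05015 stood at 2.17 and 1.22 RPKM in controls 1 and 2, and 1 of the 4 markers passed the test (edgeR), or 4 of 4 without control 3. In bulk RNA, fewer cells of a type and less RNA per cell cannot be told apart, and the part of spore-forming cells in the results below was not tested. Where leaving out control 3 changed a call or moved a change by more than 1.5 times, the value without it is given for the hydrolase genes and for the related genes named.

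All 33 hydrolase genes passed this threshold (11 were higher in celAΔ and 22 were lower), against the 93.6% of listed genes. Their libraries did not overlap between the strains in any of the 33, which was also true of 99.3% of the listed genes. Neither count sets the hydrolase genes apart from the list they were taken from. The median log2 FC was -1.24 for the hydrolase genes and -1.04 for all listed genes, and 66.7% of the former were lower in celAΔ, compared with 53.3% of the latter. The changes ranged from -10.95 to 4.13, with 15 genes between -1 and -2, 7 below -2, 7 between 1 and 2 and 4 above 2. The value of 4.13 is that of ANIA_09442 and rests on no more than 3 reads in any library. The next highest was 2.24 (ANIA_05320). Among the 7 below -2, ANIA_06462 had no more than 4 reads in any library. A change beyond 2 on the log2 scale, in either direction, was found in 33.3% of the hydrolase genes and in 42.2% of the list. The former share includes ANIA_09442 and ANIA_06462.

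**Figure D1:**
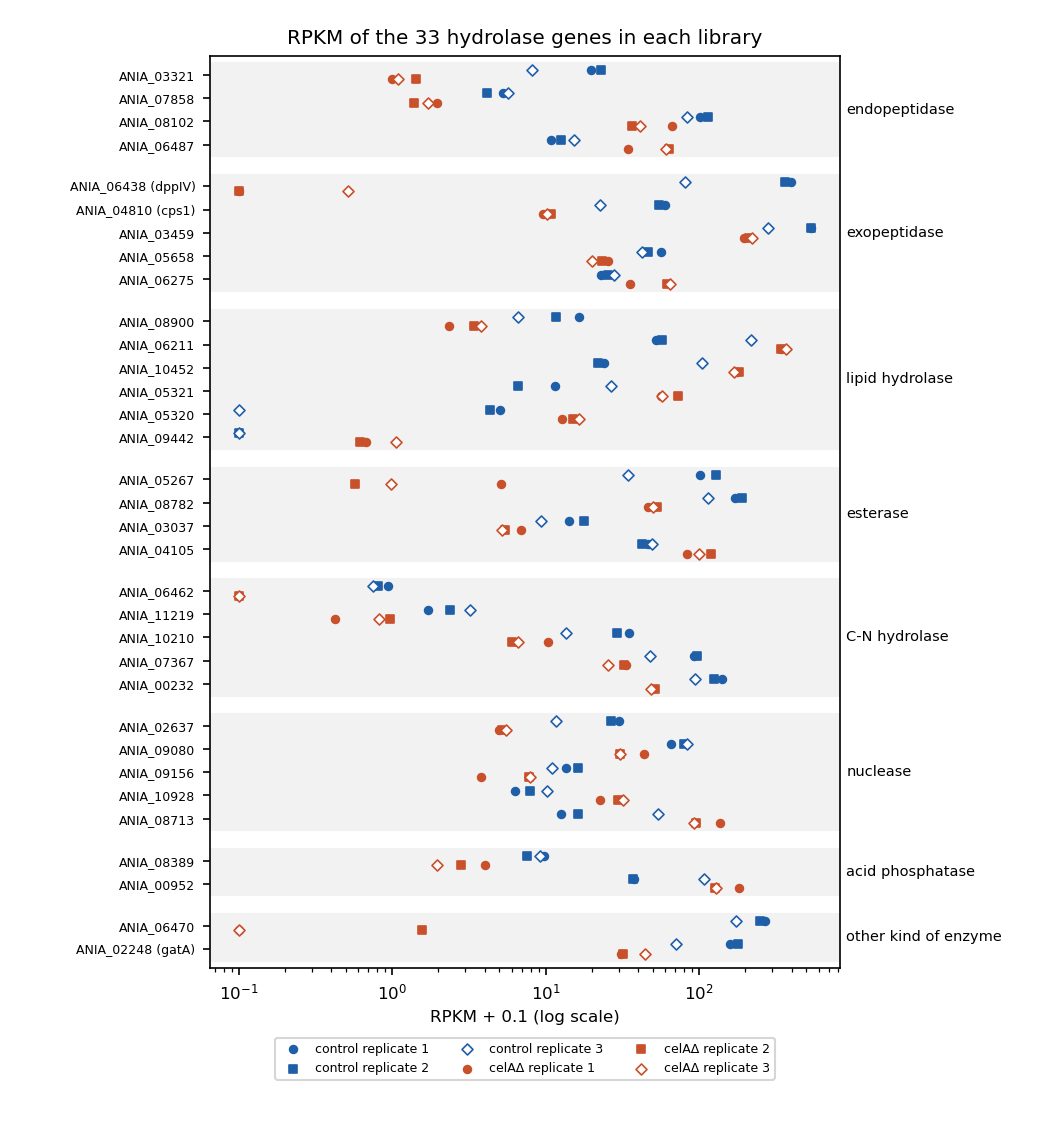
RPKM of each of the 33 genes in each library, plotted as RPKM + 0.1 on a log axis, with control libraries in blue and celAΔ libraries in orange, grouped by the role of the encoded protein. In every row the blue and orange points occupy separate ranges, and control replicate 3 (open blue diamond) lies nearest to the orange points in 27 of the 33 rows.

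The direction differed between roles. All 5 genes of carbon-nitrogen hydrolysis were lower in celAΔ (median log2 FC -1.76), as were 3 of 4 endopeptidase genes (median -1.34), 4 of 5 exopeptidase genes (median -1.10), 3 of 4 esterase genes (median -1.46) and 3 of 5 nuclease genes (median -1.07). The lipid hydrolases went the other way, with 5 of 6 higher and a median of 1.94. Of these 5, 2 passed with each library left out in turn, namely ANIA_05321 and ANIA_09442. The latter had no more than 3 reads in any library. The counts by role are over few genes, and no difference between the roles was tested. The medians of the nuclease and exopeptidase genes were near that of all listed genes. The exopeptidase gene dppIV and the carbon-nitrogen gene ANIA_06462 lie in the chromosome I stretch described below. The summed RPKM of the 6 lipid hydrolase genes was 109 and 102 in controls 1 and 2 and 353 in control 3, against 590 to 614 in celAΔ, whereas that of the 5 exopeptidase genes was 1068, 1025 and 455 in the controls against 267 to 317. In both sums control 3 lies between the other controls and celAΔ.

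**Figure D2:**
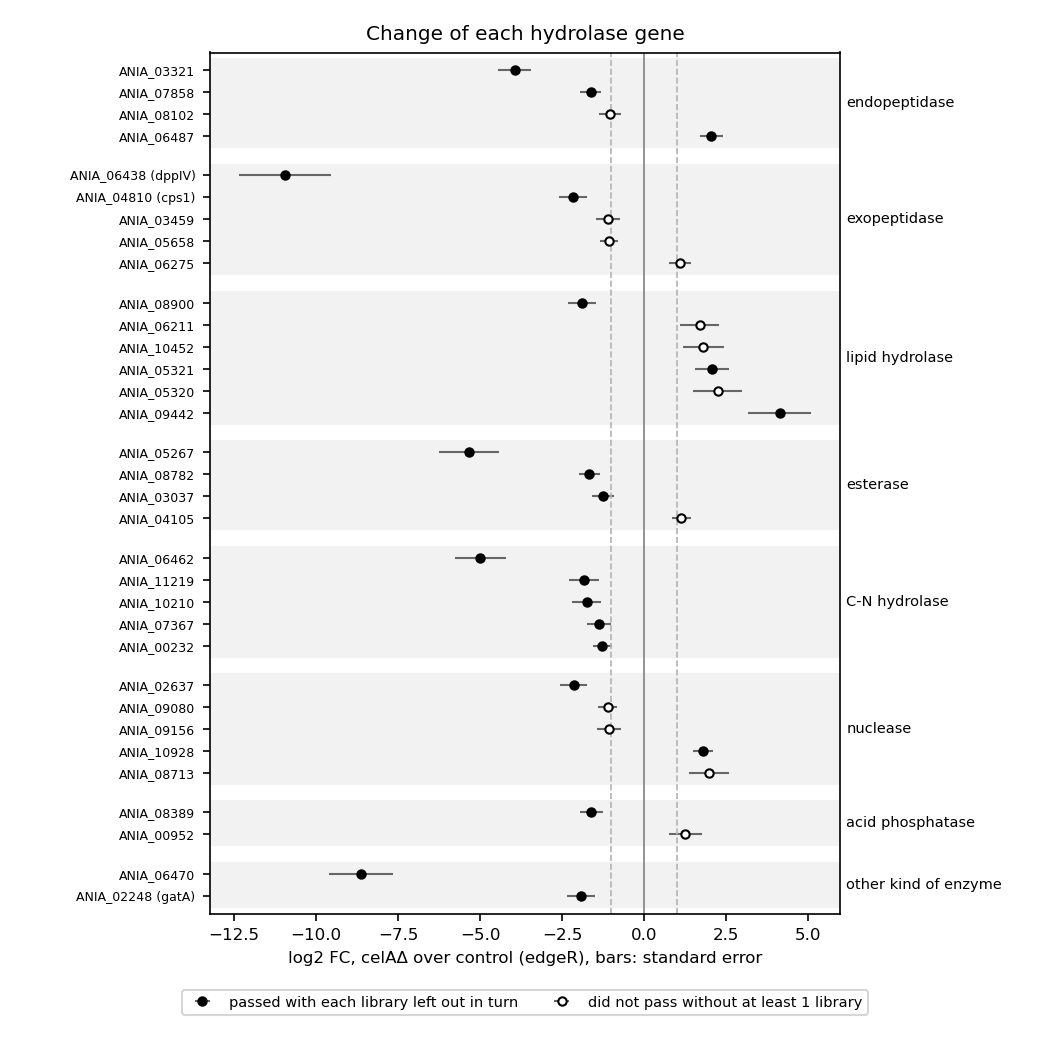
log2 FC of celAΔ over control for each gene by edgeR. Bars give the standard error computed back from the edgeR test statistic. A solid line is drawn at 0 and dashed lines at the threshold of 1 in either direction. Filled symbols mark the 21 genes that passed with each library left out in turn and open symbols the 12 that did not. The fitted values of genes with almost no reads in one strain (ANIA_06438, ANIA_06470, ANIA_06462, ANIA_09442) depend on the prior count.

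The 4 endopeptidase genes all encode aspartic proteases, enzymes that cut proteins with a pair of aspartate residues in the active site and mostly at acid pH. ANIA_03321, a hypothetical aspartyl protease, stood at 19.5, 23.0 and 8.02 RPKM in the control and at 0.891, 1.32 and 0.989 in celAΔ. It was thus 15.8-fold lower on the means, with the lowest control still far above the highest celAΔ library (log2 FC -3.94, SE 0.50, edgeR adjusted p = 0.00145). ANIA_08102, the most abundant of the 4 in the control, measured 101, 114 and 82.7 RPKM in the control and 66.1, 36.6 and 41.0 in celAΔ. Its libraries did not overlap, but the change was close to the threshold (log2 FC -1.05, SE 0.34, edgeR adjusted p = 0.0212). It did not pass when control 1, control 2, celAΔ 2 or celAΔ 3 was left out, with log2 FC of -0.89 to -1.04 and edgeR adjusted p of 0.0543 to 0.0882.

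Both remaining endopeptidase genes carry the annotation OpsB and the same A. fumigatus orthologue, and they moved in opposite directions. ANIA_07858, on chromosome II, fell from 5.15, 4.05 and 5.56 RPKM in the control to 1.85, 1.28 and 1.60 in celAΔ (log2 FC -1.63, SE 0.32, edgeR adjusted p = 0.00449). ANIA_06487, on chromosome I, rose from 10.7, 12.4 and 15.2 RPKM to 34.3, 63.3 and 61.0 (log2 FC 2.05, SE 0.35, edgeR adjusted p = 0.0029). The RPKM of ANIA_06487 was thus 2.07, 3.07 and 2.74 times that of ANIA_07858 in the control libraries and 18.5, 49.3 and 38.1 times in celAΔ, so that the balance between these like-annotated genes lay further towards ANIA_06487 in every celAΔ library. The log2 ratio differed by 3.65 between the strains (two-sided exact permutation test, p = 0.1, the smallest that 3 libraries against 3 allow). This pair was chosen after its values were seen. The libraries of each gene did not overlap and the genes moved in opposite directions, so the test could give no other p. Control 3 was not the nearest control to celAΔ for ANIA_07858, and reads of both genes were unique to within 1 read.

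Of the exopeptidase genes, dppIV (ANIA_06438), annotated as a hypothetical dipeptidyl aminopeptidase, an enzyme that takes dipeptides off the amino end of a chain, showed the largest difference of all 33. It had 3395, 2768 and 672 unique reads (394, 361 and 80.2 RPKM) in the control and 0, 0 and 4 reads in celAΔ. Over the pooled reads this was 2257-fold lower, with a 95% interval of 881 to 8287 for counting error only. Control 3 held far fewer reads than the other controls but at 80.2 RPKM was still far above the highest celAΔ library, at 0.412. The gene lies in a stretch of chromosome I described below, in which all listed genes were near 0 in celAΔ.

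The vacuolar carboxypeptidase gene cps1 (ANIA_04810), whose yeast counterpart releases amino acids from the carboxyl end of peptides in the vacuole, measured 60.1, 54.5 and 22.5 RPKM in the control and 9.51, 10.7 and 10.1 in celAΔ. It was lower in every celAΔ library, which agreed closely among themselves (log2 FC -2.17, SE 0.42, edgeR adjusted p = 0.00417). ANIA_03459, a putative glutamate carboxypeptidase and the most abundant of all 33 genes in the control, measured 534, 538 and 282 RPKM in the control and 197, 211 and 222 in celAΔ. The log2 FC was -1.10 (SE 0.37, edgeR adjusted p = 0.0235), and it passed without control 3 but not without any of the other 5 libraries (log2 FC -0.96 to -1.15, adjusted p 0.0599 to 0.0868) nor with the replicate number as a block (adjusted p = 0.0742).

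ANIA_05658 encodes gamma-glutamyltranspeptidase, which opens the gamma-glutamyl bond of glutathione. Its levels were 56.6, 46.1 and 42.2 RPKM in the control against 25.3, 23.2 and 20.0 in celAΔ (log2 FC -1.08, SE 0.28, edgeR adjusted p = 0.0103). Without control 1 the change was -0.95 and without celAΔ 3 it was -0.99 (adjusted p = 0.0534), both short of the threshold. The only exopeptidase gene that was higher in celAΔ was ANIA_06275, of the metallopeptidase family M20/M25/M40, with 22.9, 25.4 and 27.9 RPKM in the control and 35.5, 61.6 and 64.3 in celAΔ. celAΔ 1 was well below the other celAΔ libraries, and the change of 1.08 (SE 0.33, edgeR adjusted p = 0.0171) did not pass without control 1, control 2, celAΔ 2 or celAΔ 3 (log2 FC 0.94 to 1.08, adjusted p 0.0512 to 0.0702).

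Among the lipid hydrolases, the extracellular lipases split. Such enzymes are secreted and cleave the ester bonds of fats. ANIA_08900, on chromosome VII, was the only lipid hydrolase gene that was lower, with 16.4, 11.5 and 6.46 RPKM in the control against 2.25, 3.30 and 3.67 in celAΔ (log2 FC -1.89, SE 0.42, edgeR adjusted p = 0.00644). ANIA_05321, on chromosome V, measured 11.3, 6.46 and 26.6 RPKM in the control and 56.5, 72.6 and 57.4 in celAΔ. It was higher in all celAΔ libraries, with control 3 above the other controls (log2 FC 2.07, SE 0.52, edgeR adjusted p = 0.00956; 2.80 without control 3). The ratio of ANIA_05321 to ANIA_08900 was 0.693 and 0.561 in controls 1 and 2, 4.12 in control 3, and 25.2, 22.0 and 15.7 in celAΔ. ANIA_05321 was thus below ANIA_08900 in controls 1 and 2 and above it in control 3 and all celAΔ libraries, and on the means it was the more abundant in both strains (difference in log2 ratio 4.13, two-sided exact permutation test, p = 0.1, the smallest possible). This pair, too, was chosen after its values were seen, and for the same reason as above its test could give no other p. The lipases carry different A. fumigatus orthologues.

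**Figure D3:**
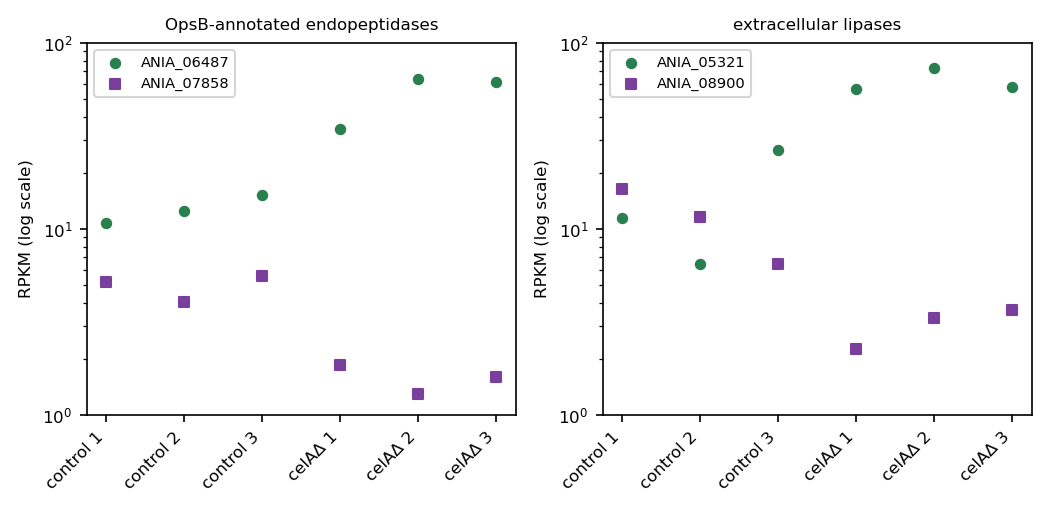
RPKM on a log axis, per library, of the endopeptidase genes ANIA_06487 and ANIA_07858 (left) and of the extracellular lipase genes ANIA_05321 and ANIA_08900 (right). In both panels the 2 genes lie closer together in controls 1 and 2 than in the 3 celAΔ libraries, and for the lipases control 3 lies between.

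Next to ANIA_05321 in gene order is ANIA_05320, a GDSL-like lipase/acylhydrolase gene. The GDSL family is named after its active-site motif and acts on a wide range of esters. ANIA_05320 had 17, 13 and 0 reads in the control (4.96, 4.26 and 0 RPKM) and 54, 72 and 63 in celAΔ (12.6, 15.0 and 16.3 RPKM). Here control 3 lay on the other side, at 0 reads, which allows a level of up to 0.90 RPKM for counting error only. The log2 FC was 2.24 (SE 0.75, edgeR adjusted p = 0.0235) and 1.65 without control 3. It did not pass without any one of the celAΔ libraries (adjusted p 0.0509 to 0.0591). ANIA_05322 and ANIA_05319, conserved hypothetical genes on either side of this pair, were also higher, with log2 FC of 1.91 and 3.01.

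ANIA_06211, similar to phospholipase A2, which frees a fatty acid from membrane phospholipids, had 52.4, 57.5 and 217 RPKM in the control and 342, 342 and 367 in celAΔ. ANIA_10452, similar to alkaline phytoceramidase, which splits the fungal sphingolipid phytoceramide into a sphingoid base and a fatty acid, had 23.9, 21.9 and 104 RPKM in the control and 175, 180 and 167 in celAΔ. The celAΔ libraries agreed closely in both genes, and control 3 lay between them and the other controls. The log2 FC of ANIA_06211 was 1.69 (SE 0.60, edgeR adjusted p = 0.0287) and rose to 2.67 without control 3. That of ANIA_10452 was 1.81 (SE 0.63, edgeR adjusted p = 0.0264) and rose to 2.92 without control 3. Neither passed when any other single library was left out (adjusted p 0.0558 to 0.0876; log2 FC 1.35 to 1.84). Both passed with and without control 3, whose removal raised the size of the change. The last lipid hydrolase gene, ANIA_09442, a cellulose-binding GDSL lipase, had 0 reads in the 3 control libraries and 2, 2 and 3 reads in celAΔ. With no more than 3 reads in any library, no fold is given. It passed the test (edgeR adjusted p = 0.0114), but not with the replicate block (adjusted p = 0.0742).

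Of the esterase genes, ANIA_05267 showed the largest difference. It encodes a feruloyl esterase, an enzyme that releases ferulic acid from plant cell walls, and had 102, 129 and 34.4 RPKM in the control against 5.04, 0.473 and 0.883 in celAΔ. The level in celAΔ was 41.4-fold lower on the means, and celAΔ 1 was several times higher than the other celAΔ libraries (log2 FC -5.35, SE 0.91, edgeR adjusted p = 0.00289; -6.98 without celAΔ 1). ANIA_08782, a putative esterase, measured 171, 191 and 114 RPKM in the control against 46.5, 53.4 and 49.7 in celAΔ (log2 FC -1.67, SE 0.31, edgeR adjusted p = 0.00395). ANIA_03037, a putative carboxylesterase, measured 14.0, 17.6 and 9.23 RPKM against 6.84, 5.30 and 5.10 (log2 FC -1.24, SE 0.33, edgeR adjusted p = 0.0112). In these 3 genes control 3 was the lowest control. ANIA_04105, annotated as an erythromycin esterase after bacterial enzymes that open the ring of that antibiotic, was the exception, at 46.6, 42.0 and 49.3 RPKM in the control and 83.6, 119 and 99.5 in celAΔ. It was higher in every celAΔ library (log2 FC 1.13, SE 0.29, edgeR adjusted p = 0.00968), with a log2 FC of 0.99 without celAΔ 2.

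The 5 genes of carbon-nitrogen hydrolysis act on amides, nitriles or urea, which A. nidulans can use as nitrogen sources. ANIA_07367 encodes a nitrilase, which turns a nitrile into an acid and ammonia, and measured 92.0, 97.2 and 47.5 RPKM in the control against 33.5, 32.4 and 25.2 in celAΔ (log2 FC -1.38, SE 0.36, edgeR adjusted p = 0.0104). ANIA_00232 encodes the urease accessory protein UreG, which helps to load nickel into urease and is not itself the urease. It had 140, 125 and 94.5 RPKM in the control and 49.0, 51.6 and 48.1 in celAΔ, the smallest change of the 5 (log2 FC -1.28, SE 0.29, edgeR adjusted p = 0.00658). ANIA_10210, a putative acetamidase, which frees ammonia from acetamide, measured 34.6, 28.9 and 13.5 RPKM against 10.2, 5.95 and 6.54 (log2 FC -1.76, SE 0.43, edgeR adjusted p = 0.00873). ANIA_11219, of the amidase family, was low throughout, at 1.62, 2.28 and 3.13 RPKM against 0.324, 0.867 and 0.721 (log2 FC -1.83, SE 0.46, edgeR adjusted p = 0.00916). ANIA_06462, a putative amidohydrolase in the same stretch of chromosome I as dppIV, had 4, 3 and 3 reads in the control and 0 in each celAΔ library. Against a floor of 3 reads per library, it was at least 1.45-fold lower. All 5 passed with each library left out in turn. Under the stricter adjustment over all loci, described below, only ANIA_06462 passed, with edgeR adjusted p of 0.0503 to 0.0795 for the others. After scaling to the median listed gene, only ANIA_06462 and ANIA_10210 passed.

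Nuclease genes went both ways. ANIA_02637, of the endonuclease/exonuclease/phosphatase family, which holds enzymes that cut phosphodiester or phosphate ester bonds, had 30.1, 26.7 and 11.7 RPKM in the control against 4.85, 5.07 and 5.38 in celAΔ (log2 FC -2.15, SE 0.41, edgeR adjusted p = 0.00416). A second gene of that family, ANIA_09156, measured 13.5, 16.1 and 10.9 RPKM against 3.71, 7.67 and 7.83 (log2 FC -1.07, SE 0.37, edgeR adjusted p = 0.025). ANIA_09080, an L-PSP endoribonuclease family gene annotated Hmf1, measured 65.5, 79.2 and 83.3 RPKM against 43.9, 30.4 and 30.5 (log2 FC -1.12, SE 0.29, edgeR adjusted p = 0.0102). The last 2 changes were near the threshold: ANIA_09156 did not pass without control 1, control 2 or celAΔ 1 (log2 FC -0.80 to -1.08, adjusted p 0.0511 to 0.0835), and ANIA_09080 did not pass without celAΔ 3 (log2 FC -1.03, adjusted p = 0.0502).

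ANIA_10928, a CAF1 family ribonuclease, was higher. In yeast, CAF1 trims the poly(A) tail of mRNA as part of the CCR4-NOT complex. Its levels were 6.22, 7.86 and 10.1 RPKM in the control against 22.4, 29.5 and 32.0 in celAΔ (log2 FC 1.79, SE 0.32, edgeR adjusted p = 0.00311). ANIA_08713, a single-stranded DNA endonuclease gene, was also higher, with 12.5, 16.2 and 54.2 RPKM in the control and 137, 95.9 and 92.6 in celAΔ. Control 3 again lay between the other controls and celAΔ (log2 FC 1.98, SE 0.60, edgeR adjusted p = 0.0169; 2.92 without control 3). It did not pass without control 2 (log2 FC 1.70, adjusted p = 0.0554) or celAΔ 1 (log2 FC 1.77, adjusted p = 0.0539).

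Both acid phosphatase genes changed, in opposite directions. ANIA_08389 is of the histidine acid phosphatase family, to which fungal phytases also belong, and fell from 9.66, 7.44 and 9.14 RPKM in the control to 3.93, 2.70 and 1.85 in celAΔ (log2 FC -1.62, SE 0.35, edgeR adjusted p = 0.00603). ANIA_00952, a putative acid phosphatase, stood at 37.8, 37.0 and 108 RPKM in the control and 182, 126 and 129 in celAΔ. Control 3 was close to the celAΔ libraries, and the change of 1.26 (SE 0.50, edgeR adjusted p = 0.0411) had the highest adjusted p of the 33. Without control 3 it was 1.96, and without any other single library it did not pass (log2 FC 1.00 to 1.35, adjusted p 0.0711 to 0.122).

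The 2 genes of other kinds of enzyme were both lower. gatA (ANIA_02248), which encodes the 4-aminobutyrate aminotransferase that feeds GABA into central metabolism and is not a hydrolase, had 158, 180 and 70.0 RPKM in the control against 30.7, 31.7 and 44.1 in celAΔ (log2 FC -1.93, SE 0.43, edgeR adjusted p = 0.00646). ANIA_06470 encodes a putative N,O-diacetyl muramidase, an enzyme that cleaves the sugar chains of bacterial cell walls. It had 646, 537 and 408 reads in the control (268, 250 and 174 RPKM) and 0, 5 and 0 reads in celAΔ, 420-fold lower over the pooled reads (95% interval 180 to 1296, counting error only). It is the third gene in the chromosome I stretch.

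In gene order in assembly ASM1142v1, the first 81 loci of chromosome I hold 25 listed genes, and all 25 were lower in celAΔ. None exceeded 8 reads in any celAΔ library, 18 had 0 reads in all 3, and their summed reads were 13138 in the control libraries against 32 in celAΔ. The hydrolase genes ANIA_06470, ANIA_06462 and dppIV are numbers 23, 38 and 64 in this order. The next listed gene, number 86, was higher in celAΔ. The other 56 loci of the stretch are not in the list and were not analysed here, and its end was drawn after the values were seen. Lower transcript levels and loss of this stretch from the celAΔ genome cannot be told apart in these data. Without the 3 genes, 30 hydrolase genes remained, 11 higher and 19 lower, with a median log2 FC of -1.11.

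**Figure D4:**
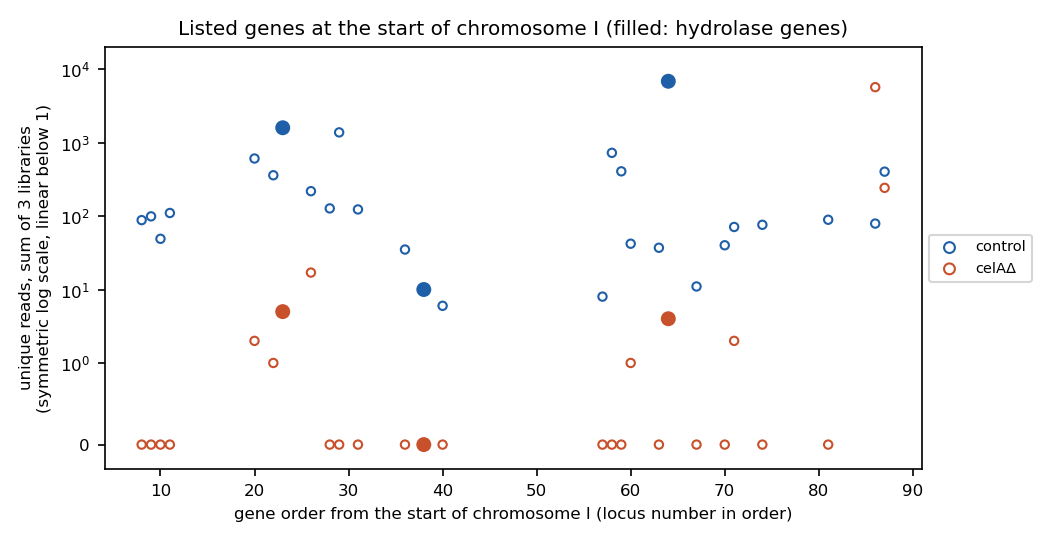
Unique reads summed over the 3 libraries of each strain (symmetric log axis, linear below 1) for the listed genes nearest the start of chromosome I, against gene order. Up to number 81 the celAΔ symbols (orange) lie at or near 0 while control symbols (blue) reach far higher, and from number 86 celAΔ reads are abundant again; filled symbols are ANIA_06470, ANIA_06462 and dppIV.

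The 33 hydrolase genes were spread over all 8 chromosomes, with 2 to 6 on each. In the assembly, 12 of the 33 (36.4%) have a directly adjacent listed gene, compared with 36.2% of all listed genes found there. All 17 such neighbours moved in the direction of the hydrolase gene beside them, while 81.2% of adjacent pairs did so over the whole list. Among the 17, ANIA_05320 and ANIA_05321 are each counted as the neighbour of the other. ANIA_06439 and ANIA_06471 lie in the chromosome I stretch, where all listed genes were lower. The acid phosphatase gene ANIA_08389 stands beside ANIA_08390, a putative ammonium transporter (Ato3) that was lower by -2.24. The lipase gene ANIA_08900 lies between a transporter gene of the MFS type, ANIA_08901 (log2 FC -1.90), and ANIA_08899, a putative 1-aminocyclopropane-1-carboxylate deaminase (-1.41). ANIA_10452 lies between a cytochrome P450 gene, ANIA_10435 (2.02), and ANIA_03661, annotated as a toxin biosynthesis protein (1.83), and ANIA_06211 beside the phosphoinositide phosphatase gene ANIA_10780 (1.48). Whether such neighbours share a control was not tested.

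Control 3 was the control nearest to celAΔ in 27 of the 33 hydrolase genes (81.8%) and in 74.5% of all listed genes. Its distance from the other controls was uneven. In 5 of the 11 higher genes (ANIA_00952, ANIA_06211, ANIA_10452, ANIA_05321 and ANIA_08713) its RPKM was 2.88 to 4.52 times the mean of controls 1 and 2, while in 4 others where it was nearest it was 1.11 to 1.44 times that mean. A ratio over 2.5 was found in 45.5% of the higher hydrolase genes and in 39.3% of the 642 listed genes that were higher. In the 18 lower genes where it was nearest, the ratio was 0.212 to 0.837. Without control 3 all 33 genes passed, 11 higher and 22 lower, as did 1321 of the 1375 listed genes. The libraries of the 33 did not overlap between the strains, so leaving out a library could not reverse a direction. The summed conidiation markers were also nearer to celAΔ in control 3, but by a far wider margin (41.0 and 40.7 RPKM in controls 1 and 2 against 1247). The part of spore-forming cells in these levels was not tested.

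**Figure D5:**
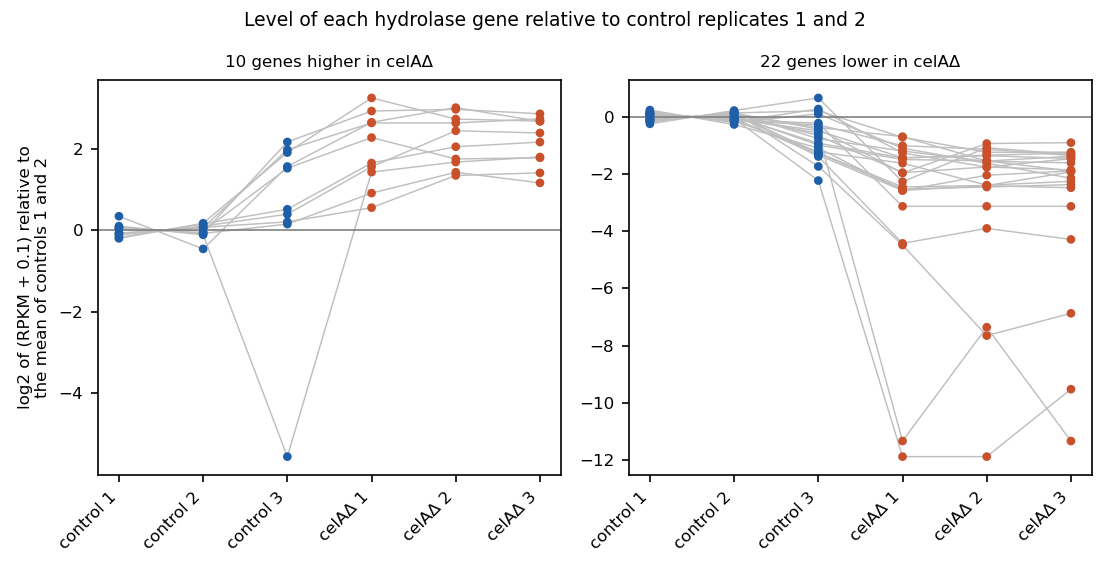
Level of each gene in each library relative to the mean of control replicates 1 and 2, as log2 of RPKM + 0.1, for genes higher (left) and lower (right) in celAΔ; each grey line is 1 gene, and ANIA_09442, with no control reads, is not drawn. Several of the higher genes rise in control 3 already, most lower genes dip there, and the single point far below 0 on the left is ANIA_05320, with 0 reads in control 3.

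The p-values were also adjusted as though all 10516 loci of the assembly had been tested and the unlisted ones had larger p-values. Under this stricter adjustment, 38.1% of the listed genes passed and 14 of the 33 hydrolase genes did so. The 2 higher genes among them were ANIA_06487 (OpsB) and ANIA_10928 (CAF1 family). The 12 lower ones were dppIV, ANIA_06470, ANIA_06462, ANIA_03321, ANIA_05267, ANIA_07858, cps1, ANIA_08782, ANIA_02637, ANIA_08389, ANIA_08900 and gatA. None of the 5 higher lipid hydrolase genes passed it, with edgeR adjusted p of 0.0731 to 0.220. When libraries were instead scaled so that the median listed gene was level between the strains, log2 FC values moved up by a median of 0.67. On that scale 11 hydrolase genes were higher and 10 lower, against 43.3% and 24.8% of the listed genes, and no gene changed direction. The 12 genes that no longer passed were all lower in celAΔ, and dppIV, ANIA_06470, ANIA_06462, ANIA_03321, ANIA_05267, cps1, ANIA_02637, gatA, ANIA_08900 and ANIA_10210 remained.

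Genes of related pathways were taken from the same list by their annotation, and their counts stand against the 41.1% of listed genes that were higher and the 52.5% that were lower in celAΔ. Those of ubiquitin conjugation and autophagy, the routes by which proteins are marked for breakdown and cell contents reach the vacuole, were 4 higher and 1 lower of 5 (median log2 FC 1.53). The highest was the autophagy-related gene ANIA_05876 (Atg22B1), with 0.866, 0.389 and 1.07 RPKM in the control against 2.91, 5.06 and 5.23 in celAΔ (log2 FC 2.46, SE 0.45). The lowest was ANIA_05351, a putative ubiquitin conjugating enzyme gene, with 83.0, 116 and 75.5 RPKM against 27.6, 23.9 and 35.4 (log2 FC -1.66, SE 0.31). Uptake of peptides, amino acids and ammonium gave 6 higher and 3 lower of 9 (median 1.30). ANIA_01073, a putative peptide transporter, was the highest, at 0.598, 0.336 and 0.768 RPKM against 6.09, 2.98 and 3.31 (log2 FC 2.81, SE 0.48). The lowest was the amino acid transporter gene ANIA_06442, which lies in the chromosome I stretch and had 0 reads in celAΔ, at least 59.3-fold lower against the floor of 3 reads per library. Without it this list had 6 higher and 2 lower genes.

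Genes for the use of amide and purine nitrogen were all lower, as were the 5 carbon-nitrogen hydrolase genes. Allantoinase (ANIA_04603), which acts in purine breakdown, had 152, 137 and 124 RPKM in the control against 45.1, 48.3 and 45.3 in celAΔ (log2 FC -1.57, SE 0.28). amdR, which encodes the activator of acetamidase and other genes of omega-amino acid and amide use, had 22.5, 24.2 and 20.5 RPKM against 7.88, 11.8 and 12.4 (log2 FC -1.07, SE 0.29) and did not pass without celAΔ 1. Uricase (ANIA_09470) measured 113, 113 and 69.8 RPKM against 35.2, 46.2 and 53.6 and did not pass without celAΔ 1 or celAΔ 2. When scaled to the median listed gene, 0 of these 3 passed. They lie outside the hydrolase rule, and the lists were not tested against each other.

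Hydrolases whose annotation lacks the words of the rule were 9 higher, 9 lower and 2 not called of 20 (median log2 FC 1.05). They include ANIA_08024, annotated as a hydrolase of the carbon-nitrogen family (log2 FC -1.54). The role groups above therefore depend on the annotation words. The lowest was ANIA_07233, of the alpha/beta hydrolase family, at 16.2, 15.5 and 8.96 RPKM in the control against 1.20, 0.428 and 0 in celAΔ (log2 FC -4.53, SE 0.66). The highest that passed was ANIA_00293, a putative carboxylic ester hydrolase gene annotated Ppe1, at 27.6, 26.5 and 62.1 RPKM against 157, 133 and 129 (log2 FC 1.85, SE 0.42). Both genes that did not pass were dienelactone hydrolase genes with a high control 3, and both passed without it, whereas ANIA_10612 and ANIA_06001 (log2 FC -1.19 and 1.09) did not pass without it (-1.12 and 0.92). ANIA_07139 had 138, 146 and 732 RPKM in the control against 1027, 1065 and 970 in celAΔ (log2 FC 1.59, SE 0.69, edgeR adjusted p = 0.0561), and a log2 FC of 2.85 (edgeR adjusted p = 4.29e-06) without control 3. ANIA_07470 had 21.1, 26.2 and 146 RPKM against 192, 181 and 206 (log2 FC 1.58, SE 0.74, edgeR adjusted p = 0.0701), and a log2 FC of 3.03 (edgeR adjusted p = 4.35e-06) without control 3. In both, controls 1 and 2 lay far below celAΔ and control 3 nearer to it.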

How the data were processed

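The authors mapped trimmed reads to the transcriptome of strain FGSC A4 in CLC Genomics Workbench and deposited, per gene and library, unique gene reads (counts without normalization) and RPKM (reads per kilobase of gene length, scaled to the mapped reads of the library). Gene length in bases, the mean RPKM per strain and the unadjusted p-value of the authors' test were deposited too; the last 2 were not used. The labels and methods give 3 days of growth, and the study's results text gives a longer time.

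Mapped totals were derived from the counts, lengths and RPKM values. With these totals, reads computed back from RPKM lay within 1 read of the gene's count for at least 98.5% of genes per library. The study's own sheet of mapped reads has the totals of control 2 and celAΔ 2 exchanged relative to the derived ones, which were used here. edgeR 4.0.16 in R 4.3.3 was run on the counts of all 1375 listed genes two-sided, with the prior count at 0.125. Library sizes were these totals, without further scaling factors, and p-values received Benjamini-Hochberg adjustment. The common biological coefficient of variation was 46.8%. The fit was also run on simulated counts in which most genes were left unchanged. The listed genes had all been selected for a difference, so that run does not bear on the calls given here. Alternatives used TMM factors, DESeq2 1.42.0, limma 3.58.1 on log2(RPKM + 1) and log2(RPKM + 0.1), limma voom, median scaling, a replicate block, a mean RPKM of at least 1, adjustment over all loci and each library left out. Tables were made in Python 3.11.15 with pandas 2.3.3 and scipy 1.17.1.

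Names and gene order came from ASM1142v1 in RefSeq, where 1372 listed genes and all 33 hydrolase genes were found. No coordinates and no sequences were used. Members, roles and lists were chosen with earlier results of these data known. All 33 genes are named; per-library values were required for the highest and lowest log2 FC of each role, genes that did not pass or overlapped, and genes over 100 RPKM, and for related lists the highest and lowest log2 FC are named. Genes named beyond that rule were chosen after their values were seen.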

Additional observations from a re-analysis of the deposited data

How the results depend on the processing

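No log2 FC of the 33 hydrolase genes changed direction under any alternative run. Leaving out a library could not change one, as no libraries overlapped between the strains. Of the 33 that passed, 14 did so when p-values were adjusted over all loci (2 higher and 12 lower, with 17 in place of 35 genes of the 4 related lists and 524 in place of 1287 of all listed genes), and 21 did so both after scaling to the median listed gene and with DESeq2 and its own size factors (11 higher and 10 lower in each). Of all listed genes, 937 passed after the median scaling and 959 with DESeq2. TMM factors gave 32 hydrolase genes (1261 of all listed genes) and limma voom 33 (1344). With limma on log2(RPKM + 1) 31 passed (1235) and on log2(RPKM + 0.1) 32 (1349). A mean RPKM of at least 1 kept 31 (1219 of all listed genes passed there). Leaving out each library in turn gave 24 (without celAΔ 3) to 33 (without control 3), with 5 (without celAΔ 2) to 11 higher genes and 18 to 22 lower. For all listed genes these fits gave 992 (without control 2) to 1321 (without control 3). In all 6 of these fits 21 genes passed (63.6%, against 62.6% of the listed genes), 4 higher and 17 lower. With the replicate number as a block (replicate block), 31 hydrolase genes passed, and 1258 of all listed genes. Same-numbered libraries correlated at 0.168, -0.169 and 0.135 after removal of the strain means, so the numbers were not treated as pairs. The limits are the 3 libraries per strain, the single transformant, the selection of the listed genes before deposition and the depth of 3300251 to 5205011 mapped reads, at which ANIA_09442 and ANIA_06462 stay at the floor of counting. The replicates are labelled biological.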
